A study of Mus musculus with 8 samples.

Results

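Interleukin 1 beta transcripts were abundant in macrophages sorted from mouse hearts and did not differ between mice given control bone marrow and mice given LOY marrow, a label read as loss of Y, beyond the spread between libraries. The genes described are 10 of the 36708 rows of the deposited expression table, chosen by gene symbol: the cytokine genes Il1a, Il1b, Il18 and Tnf, the receptor antagonist gene Il1rn, the inflammasome genes Nlrp3, Pycard and Casp1, and Casp4 and Gsdmd, which act in lytic cell death. Each symbol matched 1 row, and 9 of the 10 reached the mean of 1 TPM that a gene needed to be tested, all but Il1a. TPM is a transcript abundance that allows for transcript length and has 1 fixed total per library. It is thus a share of the RNA, and the read depth behind a value is unknown.

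The control group held 4 libraries from mice transplanted with control marrow (labelled control BMT, genotype Control), and the LOY group held 4 libraries from mice transplanted with LOY marrow (LOY BMT, genotype LOY), and both carried the treatment label Control. Left ventricles were digested with enzymes, and 6000 living cells per library were sorted that carried CD45.2, the Fc receptor CD64 and a red fluorescent protein and lacked the neutrophil protein Ly6G. Strain, age, the way the Y chromosome was lost and whether each library came from a separate animal are not stated in the labels, so p-values measure the spread between these libraries, which may be partly technical. The comparison asks how cardiac macrophages that arose from LOY marrow differ from those that arose from control marrow.

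Interleukin 1 alpha and beta and TNF are early signals of sterile and infectious inflammation, and in the injured heart macrophages and monocytes are among their main sources. IL-1 beta and IL-18 are made as inactive precursors. The sensor NLRP3, the adaptor ASC (encoded by Pycard) and caspase-1 assemble into the inflammasome, which cuts both precursors and gasdermin D, whose fragment forms pores in the plasma membrane. Mouse caspase-4, usually called caspase-11, cuts gasdermin D in response to cytosolic lipopolysaccharide. RNA levels measure the supply of these components and not the cutting.

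All 9 tested markers of macrophages, among them the CD64 gene Fcgr1 and Adgre1, exceeded 1 TPM, with a sum of 25139 to 26876 TPM among controls and 22241 to 28911 TPM in LOY libraries. The summed TPM of the Y genes Ddx3y, Eif2s3y, Kdm5d and Uty lay between 80.8 and 109.1 in control libraries and between 1.49 and 2.77 in LOY replicates 1, 3 and 4, and was 46.4 in the library labelled LOY replicate 2, which therefore stands between the groups and whose effect is given below. Fewer cells of a type and less RNA per cell cannot be told apart in such bulk samples. Across all 11725 tested genes the median log2 fold change was 0.16, and 68.2% of genes had a fold change above 0, so a value near 0.16 is that of the median gene.

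The promoters of Il1b, Il1a and Tnf are shown because these cytokine genes span the range of levels below, and those of Casp1 and Casp4 because these neighbours, 1562 bases apart on chromosome 9, differed in direction. Each line gives the 250 bases before the annotated start on the gene's own strand, from RefSeq (GRCm38.p6), and capitals mark matches to the motifs searched. Il1b lies at chr2:129371140-129371389, minus strand, Il1a at chr2:129309973-129310222, minus strand, Tnf at chr17:35202008-35202257, minus strand, Casp4 at chr9:5308599-5308848, plus strand, and Casp1 at chr9:5298267-5298516, plus strand.
Il1b: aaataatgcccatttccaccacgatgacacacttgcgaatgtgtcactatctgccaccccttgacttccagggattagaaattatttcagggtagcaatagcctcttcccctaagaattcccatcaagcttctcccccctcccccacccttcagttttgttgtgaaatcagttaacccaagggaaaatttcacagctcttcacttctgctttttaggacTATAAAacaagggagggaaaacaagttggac
Il1a: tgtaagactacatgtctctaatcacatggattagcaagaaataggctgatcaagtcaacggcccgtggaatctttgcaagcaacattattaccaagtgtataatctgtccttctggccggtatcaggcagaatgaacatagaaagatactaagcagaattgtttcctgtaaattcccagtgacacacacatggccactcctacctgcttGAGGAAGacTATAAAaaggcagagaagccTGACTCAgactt
Tnf: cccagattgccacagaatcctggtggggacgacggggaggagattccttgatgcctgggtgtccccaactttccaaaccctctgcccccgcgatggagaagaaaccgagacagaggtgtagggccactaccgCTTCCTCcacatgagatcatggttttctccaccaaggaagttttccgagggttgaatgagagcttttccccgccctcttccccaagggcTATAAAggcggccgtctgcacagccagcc
Casp4: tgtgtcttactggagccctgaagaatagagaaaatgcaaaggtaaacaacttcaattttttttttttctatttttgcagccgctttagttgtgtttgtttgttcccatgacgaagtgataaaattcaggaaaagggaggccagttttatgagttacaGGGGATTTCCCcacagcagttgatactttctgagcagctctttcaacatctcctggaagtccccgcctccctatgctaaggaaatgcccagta
Casp1: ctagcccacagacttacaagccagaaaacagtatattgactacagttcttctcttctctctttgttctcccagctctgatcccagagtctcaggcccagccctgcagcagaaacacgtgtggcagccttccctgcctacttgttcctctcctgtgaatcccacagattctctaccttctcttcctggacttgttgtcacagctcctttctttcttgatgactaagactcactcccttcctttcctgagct

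On both strands 5 motifs were searched: the TATA box TATAAA, the AP-1 motif TGANTCA, the PU.1 core GAGGAAG, the C/EBP motif TTGCNNAA and the NF-kB consensus by its name. The TATA box lay at positions -31 to -26 relative to the start in Il1b, -32 to -27 in Il1a and -29 to -24 in Tnf, so these cytokine genes share it at nearly the same place. It was found anywhere in 12.4% of 32817 RefSeq promoters of the same length. Il1a also held the PU.1 core at -41 to -35 and AP-1 at -12 to -6, and Tnf held the PU.1 core on the other strand at -118 to -112. PU.1 is the transcription factor that defines the myeloid lineage, and its core occurred in 10.6% of promoters and AP-1 in 6.75%. In Casp4, 3 overlapping matches to the NF-kB consensus lay between -93 and -83, a motif found in 3.90% of promoters, while none of the 5 motifs matched in Casp1. Promoters of 9 of the 10 genes were in the table. Besides those printed, Il18 held a TATA box on the other strand at -175 to -170, Pycard a C/EBP motif and a PU.1 core, Il1rn 1 AP-1 motif over its 3 annotated starts, and Nlrp3 an NF-kB match at 1 start and 2 PU.1 cores at the other. A match is a description of letters and not evidence of binding, and C/EBP motifs occurred in 9.57% of promoters.

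Mean levels over the 8 libraries ran from 355.0 TPM for Il1b to 0.863 TPM for Il1a, neighbours on chromosome 2 whose annotated ends are 54597 bases apart. Between them stood, in TPM, Pycard at 215.7, Gsdmd at 169.1, Casp1 at 101.7, Il1rn at 88.7, Il18 at 84.1, Casp4 at 47.5, Tnf at 28.2 and Nlrp3 at 14.7. Il1b was more abundant than 96.6% of the tested genes, and Nlrp3 more abundant than 45.3%. Gsdmd did not fall below 131.2 TPM and Casp1 did not exceed 115.5 TPM, so these neighbours in the order were separated in all libraries, as were Tnf, with at least 18.4 TPM, and Nlrp3, with at most 16.8 TPM. Nlrp3 and Il1a were also separated. The other neighbours overlapped. The sensor gene Nlrp3 was thus the scarcest of these 9 tested genes, with 10.1 to 22.5 TPM of the adaptor Pycard for each TPM of Nlrp3.

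**Figure D1:**
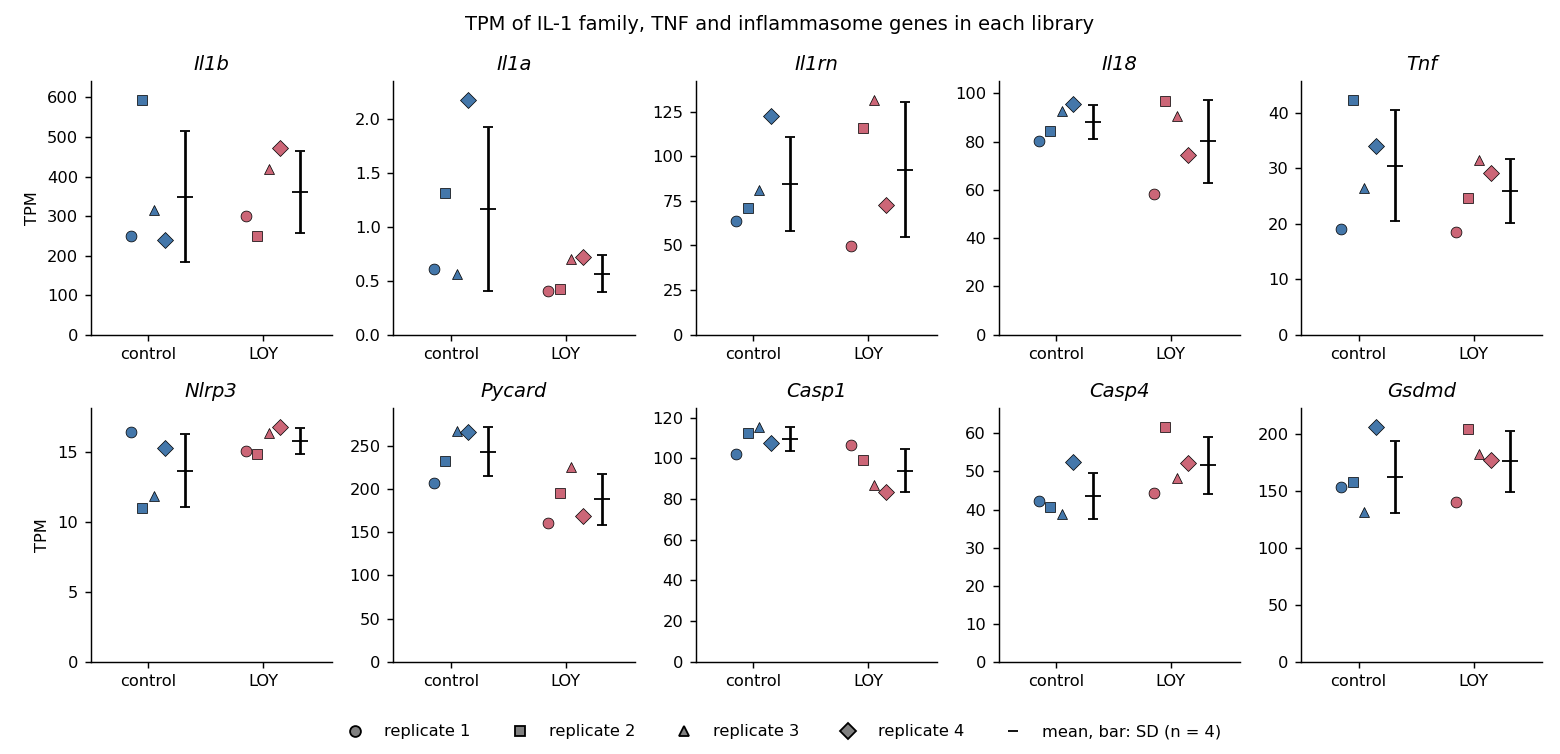
TPM of the 10 genes (vertical axes, each from 0) in the 4 control and 4 LOY libraries, with symbols for replicates and the mean and SD of each group beside them. The groups overlap for every gene, with Il1b spread from 239.4 to 594.1 TPM among controls and Pycard mostly lower in LOY libraries.

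Il1b (chromosome 2, 129364570 to 129371139, GRCm38) stood at 249.9, 594.1, 314.4 and 239.4 TPM in control replicates 1 to 4 and at 301.3, 249.1, 418.9 and 472.7 TPM in LOY replicates 1 to 4. The highest library was a control and the groups overlapped through almost their whole range. The group means were 349.4 ± 166.5 and 360.5 ± 103.1 TPM (SD, n = 4 each), and the log2 fold change of TPM + 1 was 0.10 (95% interval -0.56 to 0.76). In limma with Benjamini-Hochberg adjustment over all genes the adjusted p was 0.848, and the exact two-sided permutation p was 0.857. Without control replicate 2 the log2 fold change was 0.39 (limma adjusted p = 0.425).

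Tnf (chromosome 17, 35199381 to 35202007) was measured at 19.0, 42.4, 26.5 and 34.0 TPM in the controls and at 18.4, 24.7, 31.5 and 29.1 TPM in the LOY libraries. Control replicate 2 was thus highest for Tnf as well as for Il1b, and the LOY values lay within the control range but for replicate 1. The means of 30.5 ± 10.02 and 25.9 ± 5.74 TPM (SD, n = 4 each) gave a log2 fold change of -0.19 (95% interval -0.74 to 0.35; limma adjusted p = 0.645; exact permutation p = 0.514).

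Il1a (chromosome 2, 129299610 to 129309972) was under the mean of 1 TPM needed for testing, at 0.603, 1.31, 0.562 and 2.174 TPM in controls and 0.405, 0.424, 0.702 and 0.723 TPM in LOY libraries. LOY replicates 1 and 2 lay below every control, and LOY replicates 3 and 4 lay between the controls. The means were 1.16 ± 0.757 and 0.563 ± 0.172 TPM (SD, n = 4 each; exact permutation p = 0.171 on log2 of TPM + 1). With no filter on low values, limma gave it -0.41 on the log2 scale, at an adjusted p of 0.446. The authors' deposited table gave it a mean count of 44.75, against 9475.5 for Il1b, with a log2 fold change of -1.02, p = 0.0342 and an adjusted p of 0.177. For each TPM of Il1a there were 110.1 to 559.7 TPM of Il1b in controls and 587.7 to 743.7 in LOY libraries, ranges that did not overlap. With 1 TPM added to both genes, as in the planned ratio, they did, at log2 ratios of Il1a to Il1b from -8.01 to -6.24 in control and from -8.10 to -7.46 in LOY libraries.

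Il18 (chromosome 9, 50554827 to 50581840) was steady in controls, at 80.4, 84.2, 92.4 and 95.4 TPM, and wider in LOY libraries, at 58.3, 96.6, 90.7 and 74.5 TPM. LOY replicates 1 and 4 lay below all controls, while LOY replicate 2 was the highest of all. Its log2 fold change was -0.16 (95% interval -0.51 to 0.19; limma adjusted p = 0.546). The kit keeps no strand, and 355 bases of the Il18 locus are also covered by the opposite-strand gene Bco2 (mean 26.9 TPM), so reads there cannot be assigned. Annotated opposite-strand transcripts also overlap Il1a, Il1b and Pycard, and the opposite-strand gene Tex12 (mean 2.6 TPM) also overlaps Il18.

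Il1rn, whose product occupies the IL-1 receptor without signalling (chromosome 2, 24336853 to 24351494), stood at 64.0, 71.0, 81.2 and 122.8 TPM among controls, against 49.8, 116.1, 131.8 and 72.6 TPM in LOY libraries. Control replicate 4 and LOY replicates 2 and 3 were high, and the other 5 libraries stayed at 81.2 TPM or less. The group means of 84.7 ± 26.3 and 92.6 ± 37.9 TPM (SD, n = 4 each) differed by 0.07 on the log2 scale (95% interval -0.60 to 0.74; limma adjusted p = 0.900; exact permutation p = 0.8286). The libraries held from 1.95 to 8.37 TPM of Il1b for each TPM of its antagonist in control and from 2.15 to 6.51 in LOY, with mean log2 ratios of Il1rn to Il1b of -1.97 ± 0.854 and -2.004 ± 0.760 (SD, n = 4 each). The balance of agonist to antagonist transcripts thus varied far more among control libraries than the group means differed.

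The 3 libraries with high Il1rn were also the 3 with the most transcript of Ly6c2, the surface antigen of inflammatory monocytes. Ly6c2 stood at 1754 TPM in control replicate 4, 1502 TPM in LOY replicate 3 and 1307 TPM in LOY replicate 2, and at 45.2 to 659.2 TPM in the others. LOY replicate 1 was lowest for Ly6c2, at 45.2 TPM, and for Il1rn. F13a1, also on the monocyte list, went the other way and was highest in LOY replicate 1, at 833.3 TPM. It stood at 191.1 TPM in control replicate 4, 282.7 TPM in LOY replicate 2 and 212.0 TPM in LOY replicate 3. All 7 markers on the monocyte list exceeded 1 TPM on average over the libraries, and none was at 0. Their sum ran from 1437 to 3800 TPM among controls and from 1322 to 3409 TPM in LOY libraries, so high and low libraries occurred in both groups. This likeness was noticed after the values were seen, and the part of the monocyte genes in the level of Il1rn was not tested.

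**Figure D2:**
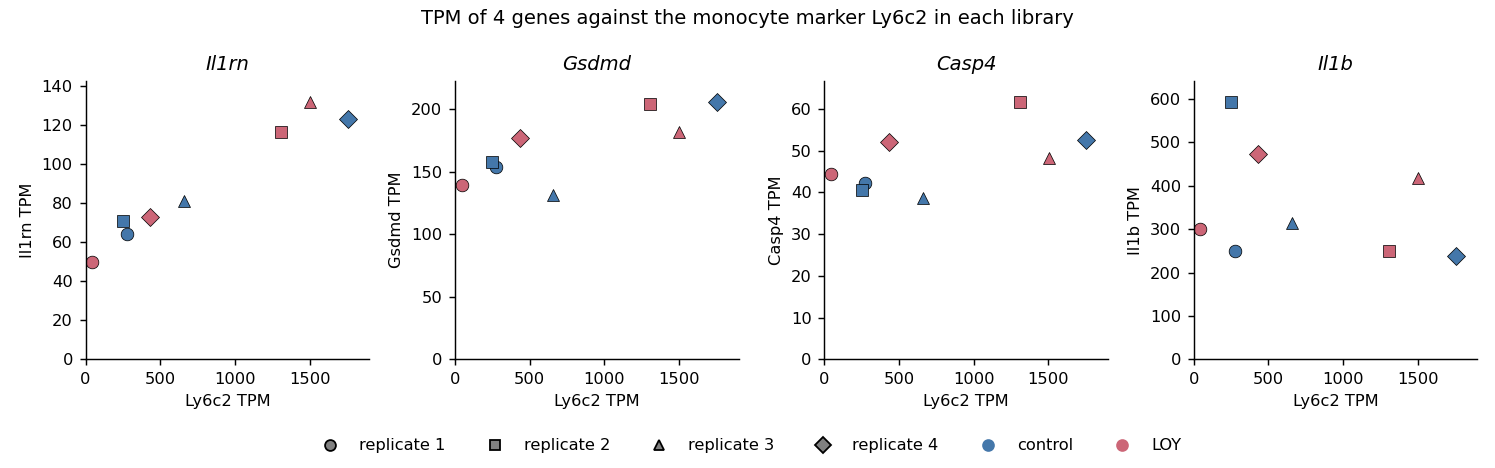
TPM of Il1rn, Gsdmd, Casp4 and Il1b (vertical axes, from 0) against TPM of the monocyte marker Ly6c2 (horizontal axes) in the 8 libraries, coloured by group, with symbols for replicates. Control replicate 4 and LOY replicates 2 and 3 lie to the right, at 1307 TPM of Ly6c2 or more, and have the 3 highest values of Il1rn and of Gsdmd, while 2 of the 3 are at 249.1 TPM of Il1b or less.

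Pycard (chromosome 7, 127989708 to 127993867) stood at 207.5, 233.1, 267.2 and 265.9 TPM in control replicates and at 160.9, 195.9, 226.0 and 169.3 TPM in LOY replicates. LOY replicates 1, 2 and 4 lay below every control, and LOY replicate 3 lay above 1 control. The means of 243.4 ± 28.7 and 188.0 ± 29.4 TPM (SD, n = 4 each), a ratio of 0.773, gave a log2 fold change of -0.38 (SE 0.14, 95% interval -0.69 to -0.06). It was the only one of the 9 tested genes with an unadjusted p under 0.05 (limma p = 0.0236, adjusted p = 0.184 over all genes; exact permutation p = 0.0571), a call that 3.45% of all tested genes received as lower and 19.3% as higher. The unadjusted limma p was under 0.05 in 14 of 18 alternative settings. Without control replicate 3 or 4, or LOY replicate 1 or 4, this p was above 0.05. After median-of-ratios scaling the log2 fold change was -0.56, and after quantile normalization it was -0.34. With the dependence on transcript length and GC content taken out of each library it was -0.59. The authors' deposited table gave Pycard a log2 fold change of -0.31 with an adjusted p of 0.469.

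Casp1 (chromosome 9, 5298517 to 5307265) had the least spread of the 10 genes in controls, a coefficient of variation of 5.4%, at 102.0, 112.4, 115.5 and 107.6 TPM. LOY libraries held 106.4, 99.1, 86.9 and 83.5 TPM, of which only replicate 1 reached the control range. The log2 fold change was -0.22 (SE 0.11, 95% interval -0.47 to 0.03; limma adjusted p = 0.258; exact permutation p = 0.0571). Once the dependence on transcript length and GC content was taken out of each library it was -0.07, with an unadjusted limma p of 0.514. After median-of-ratios scaling it was -0.40, with an unadjusted limma p of 0.0169 and an adjusted p of 0.187. With that scaling Pycard and Casp1, 2 of 9 genes, had such a p as lower, against 11.0% of all genes, and none of the 9 as higher, against 10.8%.

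The sensor gene Nlrp3 (chromosome 11, 59541568 to 59566956) was found at 16.5, 11.02, 11.9 and 15.3 TPM in controls and in a narrow band of 15.1, 14.8, 16.4 and 16.8 TPM in LOY libraries. Control replicates 2 and 3 lay below every LOY library, and control replicates 1 and 4 lay among them. The log2 fold change was 0.21 (95% interval -0.14 to 0.56; limma adjusted p = 0.414). It was -0.04 after quantile normalization and -0.09 once the dependence on transcript length and GC content was taken out of each library, so its direction depended on the scaling. In the authors' deposited table, which rests on counts, Nlrp3 had a larger log2 fold change of 0.65 (SE 0.28, p = 0.0190, adjusted p = 0.130). The median log2 fold change there, over the genes tested here, was 0.21, against 0.16 in limma. The 10 genes in the authors' deposited table thus included 1 with an unadjusted p under 0.05 as higher, Nlrp3, and 1 as lower, Il1a, where 22.0% and 0.896% of its genes with an adjusted p did. None of the 10 had an adjusted p under 0.05 there, against 3.94% of genes.

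Casp4 (chromosome 9, 5308828 to 5336783) stood at 42.2, 40.7, 38.7 and 52.4 TPM in controls and at 44.3, 61.7, 48.3 and 52.1 TPM in LOY libraries. Every LOY library lay above control replicates 1, 2 and 3, and control replicate 4 lay among the LOY values. The log2 fold change was 0.24 (95% interval -0.07 to 0.56; limma adjusted p = 0.314; exact permutation p = 0.143), which was 0.06 after median-of-ratios scaling. With the dependence on length and GC content taken out it was 0.32. Its unadjusted limma p was then 0.0278, a call that 7.55% of all genes received as higher, and its adjusted p 0.286. The mean log2 ratio of Casp4 to Casp1 within a library was -1.32 ± 0.232 in control and -0.86 ± 0.271 in LOY libraries (SD, n = 4 each). A factor common to all genes of a library does not move this ratio but for the added 1 TPM. The ratio ran from -1.55 to -1.02 and from -1.25 to -0.67, so the groups overlapped.

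The pore-former gene Gsdmd (chromosome 15, 75862327 to 75867408) stood at 153.8, 158.0, 131.2 and 206.3 TPM among controls, against 139.9, 204.7, 182.1 and 176.9 TPM in LOY libraries. Its highest values were those of control replicate 4 and LOY replicates 2 and 3, the libraries that were also high for Il1rn and Ly6c2. The log2 fold change was 0.12 (95% interval -0.24 to 0.48; limma adjusted p = 0.665), and -0.06 after median-of-ratios scaling.

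Of the 9 tested genes 0 passed the limma threshold of an adjusted p under 0.05, as did 0.0% of the 11725 genes, of which 2262 had an unadjusted p under 0.05 as higher and 405 as lower. Groups did not overlap in 0 of the 9, against 9.37% of all genes. Fold changes were above 0 in 5 and below 0 in 4, with a median of 0.07, below the 0.16 of all genes. The 95% intervals were widest for Il1b, Il1rn and Tnf and left room for log2 changes of 0.76, 0.74 and -0.74, so a p above the threshold does not show that these genes were alike in both groups. Without LOY replicate 2 the log2 fold changes were 0.26 for Il1b, -0.18 for Tnf, -0.26 for Il18, -0.07 for Il1rn, 0.24 for Nlrp3, -0.40 for Pycard, -0.25 for Casp1, 0.15 for Casp4 and 0.04 for Gsdmd. Pycard was again the one gene with an unadjusted limma p under 0.05 (0.0361, adjusted p = 0.353). Of all 11725 genes 314 then had such a p as lower and 1339 as higher. LOY replicate 1 was the lowest library for 5 of the 10 genes, Il1a, Il1rn, Il18, Tnf and Pycard.

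**Figure D3:**
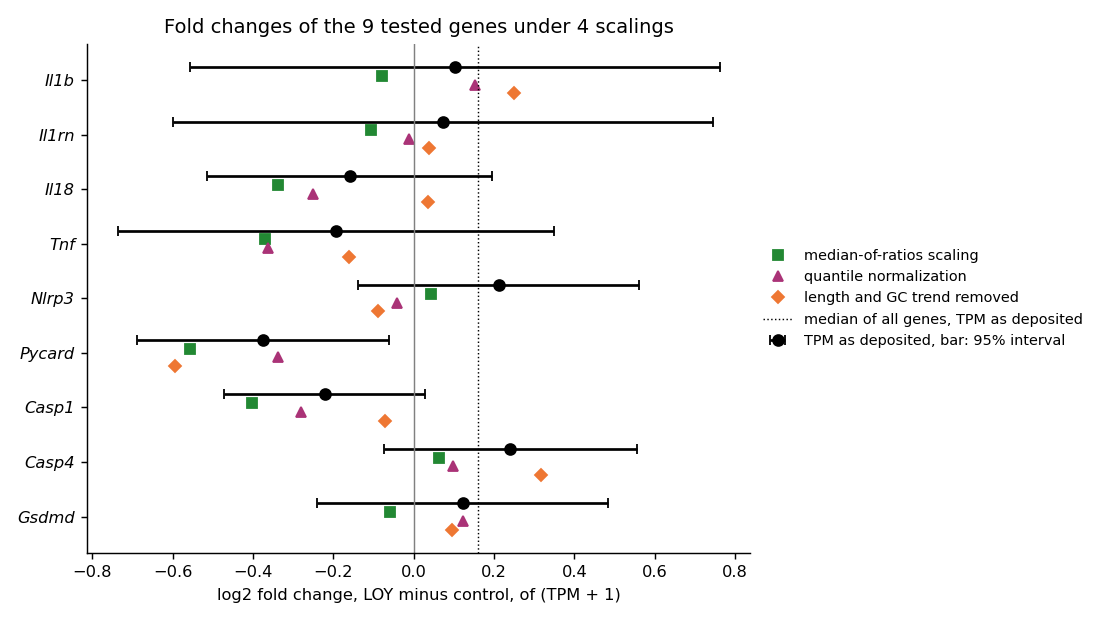
Log2 fold changes of TPM + 1, LOY minus control, of the 9 tested genes (rows) for TPM as deposited with 95% intervals, and as points after median-of-ratios scaling, quantile normalization and removal of a length and GC trend. Pycard, Casp1 and Tnf lie below 0 and Casp4 above 0 under all 4, and Nlrp3, Il1b, Il1rn, Il18 and Gsdmd lie on both sides.

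Other genes of the pathway had larger fold changes, of which none passed an adjusted p under 0.05. Of 14 adaptors and kinases that carry the signal of IL-1 and TNF receptors, 6 had an unadjusted limma p under 0.05 as higher and 0 as lower, with a median log2 fold change of 0.28. Over all tested genes the shares were 19.3% as higher and 3.45% as lower. In 3 of the 14 every LOY library lay above every control, against 6.76% of all genes. Irak2, a kinase recruited to the IL-1 receptor complex, stood at 90.0, 74.1, 71.6 and 95.3 TPM in controls and at 101.1, 133.5, 114.2 and 128.7 TPM in LOY libraries (log2 fold change 0.53, SE 0.14, limma adjusted p = 0.179). Map3k7, which encodes the kinase TAK1 downstream of both receptors, stood at 25.6, 16.6, 10.97 and 16.9 against 31.4, 31.8, 26.6 and 31.4 TPM (0.81, SE 0.21, limma adjusted p = 0.179). In both genes the groups did not overlap.

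Irak4, the kinase that starts the cascade, had means of 28.4 ± 2.68 TPM among controls and 36.6 ± 2.55 TPM in LOY libraries (SD, n = 4 each), again without overlap (log2 fold change 0.36, limma adjusted p = 0.181). The ubiquitin ligase gene Traf6 had means of 6.16 ± 2.72 and 11.2 ± 2.175 TPM (SD, n = 4 each; log2 fold change 0.82, limma adjusted p = 0.179), and the authors' deposited table gave it an adjusted p of 0.0450. Outside the rule for naming genes, and chosen after its values were seen, the receptor adaptor gene Myd88 was the most abundant of the list, at a mean of 150.4 TPM, and differed by 0.04 on the log2 scale (limma adjusted p = 0.900). With the dependence on length and GC content taken out, the log2 fold changes were 0.28 for Irak2, 0.47 for Map3k7, 0.47 for Traf6 and 0.15 for Irak4, the last with an unadjusted limma p of 0.186.

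Among the 10 tested of 12 receptors, decoys and binding proteins, 3 had an unadjusted p under 0.05 as higher and 1 as lower. Over all tested genes the shares were 19.3% and 3.45%, from which these counts of 10 genes are not far. Tnfrsf1b, the second TNF receptor, stood at 199.8, 125.8, 74.6 and 150.6 TPM in controls and at 198.4, 239.1, 218.2 and 270.5 TPM in LOY libraries (log2 fold change 0.82, SE 0.26, limma adjusted p = 0.179). Only control replicate 1 reached the LOY range. Adam17, the protease that sheds TNF and its receptors, had means of 57.6 ± 17.1 and 93.6 ± 19.1 TPM (SD, n = 4 each; log2 fold change 0.72, limma adjusted p = 0.181), and Il1rap, the shared chain of the IL-1 receptors, of 6.13 ± 2.002 and 9.77 ± 1.72 TPM (0.62, limma adjusted p = 0.182). The inhibitory receptor gene Sigirr was the 1 with such a p as lower, at 8.58 ± 1.53 against 6.36 ± 0.364 TPM (SD, n = 4 each; log2 fold change -0.37, limma adjusted p = 0.217). With the dependence on length and GC content taken out, Tnfrsf1b was at 0.50, Adam17 at 0.45, Il1rap at 0.36 and Sigirr at -0.46, with an unadjusted limma p of 0.0528 for Il1rap and under 0.05 for the others. Likewise chosen after the values were seen, the signalling receptor gene Il1r1 averaged 0.147 TPM and was not tested, while the decoy gene Il1r2 averaged 9.48 TPM.

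All 12 tested of 15 other inflammasome sensors and triggers had fold changes above 0, with a median of 0.40, and 6 had an unadjusted p under 0.05 as higher. Of all tested genes 68.2% were above 0 and 19.3% had such a p as higher. P2rx7, the ATP-gated channel whose opening triggers NLRP3, stood at 117.4, 86.0, 80.2 and 106.0 TPM in controls and at 134.9, 142.6, 129.7 and 137.7 TPM in LOY libraries, with no overlap (log2 fold change 0.50, SE 0.13, limma adjusted p = 0.179). Nek7, a kinase that binds NLRP3, had means of 42.2 ± 8.46 and 55.5 ± 5.51 TPM (SD, n = 4 each; 0.40, limma adjusted p = 0.186). Nlrc4, a sensor scaffold, and Naip6, one of the receptors that engage it, had log2 fold changes of 0.53 and 0.72 (limma adjusted p = 0.182 for each). The authors' deposited table gave Naip6 a log2 fold change of 0.94 with an adjusted p of 0.0499. Naip genes are close copies of each other and their reads may be split between them. With the dependence on transcript length and GC content taken out, P2rx7 was at 0.14, Nek7 at 0.10, Nlrc4 at 0.24 and Naip6 at 0.36 on the log2 scale. None of these 4 genes then had an unadjusted p under 0.05, and their limma adjusted p ran from 0.372 to 0.704. Under that setting and under median-of-ratios scaling 11 of the 12 were above 0, with medians of 0.14 and 0.24.

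**Figure D4:**
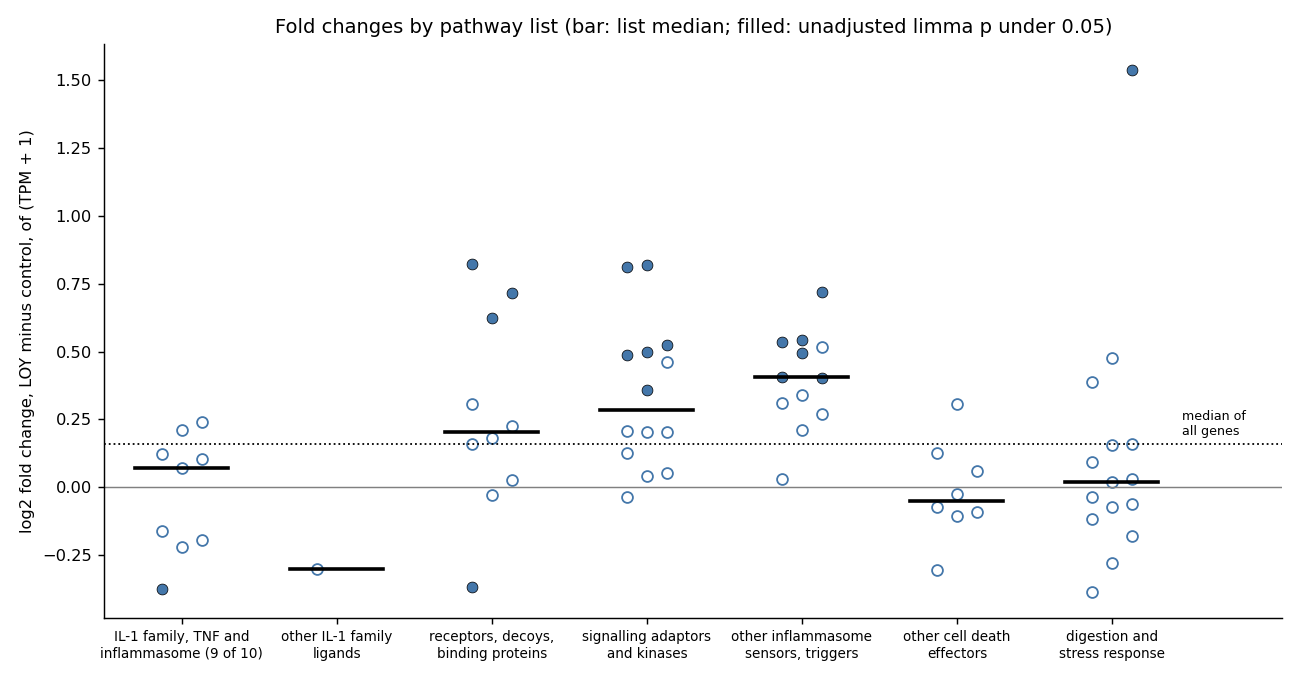
Log2 fold changes of TPM + 1, LOY minus control (vertical axis), of the tested genes of each pathway list, with the list median as a bar, filled points for an unadjusted limma p under 0.05 and a dotted line at 0.16, the median of all genes. Sensors and triggers and the signalling list lie mostly above the line, and the 9 tested genes of the report lie around 0.

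These counts moved with the scaling and with the library left out. After median-of-ratios scaling 4 of the 14 signalling genes and 2 of the 12 sensors had an unadjusted p under 0.05 as higher, where 10.8% of all genes did. The count for sensors is close to that share. With the dependence on length and GC content taken out 3 and 0 did, where 7.55% of all genes were called higher and 7.76% lower. The longest annotated transcripts of the signalling and sensor lists had medians of 3976 and 4776 bases, those of the 9 tested cytokine and inflammasome genes 1792 bases, and those of all genes 3180 bases. Longer genes tended to have the higher fold changes (Spearman's rho 0.49 over 11663 genes, which are not independent). Without LOY replicate 2, 5 of the 14 signalling genes, 2 of the 12 sensors and 2 of the 10 receptors had an unadjusted p under 0.05 as higher, where 11.4% of all genes did, so the counts for sensors and receptors are not far from that share. Without control replicate 2 or 3, or LOY replicate 4, the signalling counts were 4, 5 and 5 and the sensor counts 2, 1 and 2. Of all 11725 genes 1277, 1164 and 1236 were then higher at such a p. Without control replicate 1 or 4, or LOY replicate 1 or 3, signalling counts were 8, 7, 6 and 6 and sensor counts 6, 4, 8 and 4. Of all genes 3460, 2006, 2468 and 2006 were then higher. Without control replicate 1, where 15.4% of all genes passed at an adjusted p under 0.05, 5 of the 14 signalling genes and 3 of the 12 sensors passed in limma, and with library weights, where 26.5% passed, 7 and 7 did. Of the cytokine and inflammasome genes 0 passed under any of the 18 alternatives.

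The other IL-1 family ligands were nearly silent, apart from the IL-36 gamma gene Il36g (listed as Il1f9), at 8.61 ± 2.19 TPM among controls and 6.72 ± 1.37 TPM in LOY libraries (SD, n = 4 each; log2 fold change -0.30, limma adjusted p = 0.397). Il33 averaged 0.258 TPM, and Il36a, Il36rn and Il1f10 were listed at 0 in every library. Among 8 tested of 9 other cell death effectors, 0 had an unadjusted limma p under 0.05 (0 after adjustment), with a median log2 fold change of -0.05. Over all tested genes 19.3% had such a p as higher and 3.45% as lower. Caspase-8, which can also cut the IL-1 beta precursor, had means of 110.7 ± 14.7 and 115.2 ± 12.5 TPM for its gene Casp8, and Ninj1, whose product ruptures the membrane in lytic death, of 247.7 ± 31.5 and 299.5 ± 181.4 TPM (SD, n = 4 each). LOY replicate 1 held 571.5 TPM of Ninj1, and the other LOY libraries 205.5 to 213.5 TPM.

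Enzymatic digestion of a tissue is known to induce inflammatory and stress genes, so immediate early and heat shock genes were read beside them. The summed TPM of 15 such genes ran from 3712 to 8038 in control and from 3660 to 9078 in LOY libraries. Control replicate 2, highest for Il1b and Tnf, held the highest control sum of 8038, whereas LOY replicate 1, with the highest sum of all, held 301.3 TPM of Il1b and the lowest Tnf, 18.4 TPM. The heat shock gene Hsph1 was the one of the 15 with an unadjusted limma p under 0.05, a call that 19.3% of all tested genes received as higher. It stood at 23.1 ± 6.99 against 70.2 ± 26.4 TPM (SD, n = 4 each; log2 fold change 1.54, limma adjusted p = 0.148), and its groups did not overlap. It passed with an adjusted p of 0.0110 without control replicate 1, of 0.00960 with library weights, and of 4.08e-06 in the authors' deposited table, which gave a log2 fold change of 1.74. The part of digestion in the cytokine levels was not tested.

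Neutrophils, another source of Il1b, carry Ly6G, and cells with Ly6G were not collected. Of 10 neutrophil markers 4 exceeded 1 TPM on average over the libraries. The 10 summed to 44.1 to 86.8 TPM among controls and 86.4 to 105.6 TPM in LOY libraries. Most of it was Csf3r, at 41.9 to 72.2 and 82.9 to 97.0 TPM, while S100a8 and S100a9 reached at most 5.42 and 6.17 TPM and Ngp was at 0 throughout. Dendritic cell markers summed to 6.21 to 33.8 TPM among controls and 16.8 to 31.4 TPM in LOY libraries. B cell markers summed to 51.5 to 77.1 and 39.6 to 46.6 TPM, nearly all of it Cd79b, and T and NK cell markers to at most 3.83 TPM in any library. Cardiomyocyte markers summed to 58.1 to 105.3 and 68.8 to 163.4 TPM, fibroblast markers to 16.2 to 30.0 and 16.6 to 29.1 TPM, endothelial markers to 13.1 to 17.1 and 16.8 to 26.0 TPM, and red blood cell markers to 208.2 to 637.6 and 170.3 to 902.2 TPM. Apart from Ngp no marker of any list was at 0 in every library, and the part of these cells in the levels of the cytokine and inflammasome genes was not tested.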

How the data were processed

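Libraries were made with the SMART-Seq v4 and Nextera XT kits from sorted cells, per the labels' protocols. The submitters' processing notes list STAR 2.5.2b, Trimmomatic 0.36, Subread 1.5.2 with featureCounts, bcl2fastq 2.17, and as builds mm10 and GRCm38. The authors deposited TPM per gene and library, with no depth, beside their own comparison: a mean signal (baseMean), p-values, a test score, and a log2 fold change and its error, per the file headers. Columns named WT and KO were taken as control and LOY from these names alone, and sheets that repeat the first were not used.

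Removal of 156 repeated rows and of genes averaging under 1 TPM left 11725 genes to test. R 4.3.3 ran limma 3.58.1, with its robust and trend options, on log2 of TPM with a pseudocount of 1, and p was adjusted by Benjamini and Hochberg's method across those genes. The procedure was tested on simulated data. For each gene described, a two-sided exact permutation test covered all 70 assignments of the 8 libraries. Alternatives changed the pseudocount, the filter, the scaling, the limma options, library weights, the replicate block and 1 library at a time. Removal of a trend on transcript length and GC content was added after the data were seen.

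Loci and lengths came from GENCODE M21, which held 35947 of the 36708 gene IDs, and promoters from RefSeq (GRCm38.p6). The genes and lists were chosen with earlier results of these data known. Of each pathway list the text names the tested genes with an unadjusted p under 0.05, at most the 4 with the smallest p, or, where there are none, the 2 with the highest mean TPM.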

Additional observations from a re-analysis of the deposited data

Results flagged for a closer look

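In 2 of 52 groups of 4 libraries checked over the genes named, 1 library stood far from the other 3, and chance alone marks about 1 group in 20. Map3k7 stood at 26.6 TPM in LOY replicate 3 and at 31.4 to 31.8 TPM in the other LOY libraries, a gap of 0.916 of the group's range. Ninj1 stood at 571.5 TPM in LOY replicate 1 and at 205.5 to 213.5 TPM in the other LOY libraries, a gap of 0.978 of the range.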

How the results depend on the processing

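Of the 9 tested genes 0 passed an adjusted p under 0.05 in limma under any of the 18 alternatives. The count at an unadjusted p under 0.05 was 0 higher and 1 lower as reported. It was 2 lower under quantile normalization, median-of-ratios scaling and library weights, and 2 higher under library weights and 1 higher once the length and GC trend was removed. Leaving out 1 library at a time gave 0 to 1 lower and 0 to 1 higher. Pycard lay below 0 throughout, with adjusted p from 0.0613 to 0.417. Directions reversed as follows, in log2 fold change: Il1rn -0.013 and Nlrp3 -0.041 under quantile normalization, and Il1b -0.078, Il1rn -0.11 and Gsdmd -0.059 under median-of-ratios scaling. Il1b was -0.26 with library weights, and Il18 was 0.037 and Nlrp3 -0.090 with the length and GC trend removed. With 1 library left out, Il1b ranged from -0.044 to 0.39 and Il1rn from -0.13 to 0.33: without control replicate 1 Il1b was -0.024 and Il1rn -0.046, without control replicate 4 or LOY replicate 4 Il1b was -0.044 or -0.043, and without LOY replicate 2 or 3 Il1rn was -0.07 or -0.13. The cause of these reversals was not tested. With the replicate number as a block 0 of the 9 genes were higher, 1 was lower and 0 passed after adjustment, as without it. Of all 11725 genes 2077 were then higher and 412 lower. Same-numbered libraries did not deviate together (Pearson r -0.152 to 0.039 over 4 pairs, 0 controls closest to their own number). Such correlations cannot show whether same-numbered libraries were handled together. The lowest library weights were 0.371 for LOY replicate 1 and 0.455 for control replicate 1. Depth is unknown, and Il1a, below 1 TPM on average, is limited most.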
